A study of Danio rerio with 6 samples.

Results

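Long stretches of the zebrafish genome without any peak of acetylated histone H3 at lysine 27 (H3K27ac) were collected from a melanoma cell line and a primary melanoma. The peaks of both sources were pooled and merged, and a stretch is a gap of 100 kb or more between consecutive merged peaks of 1 chromosome. Chromosome ends and the mitochondrial sequence were left out. Of 83418 gaps between 83443 merged peaks, 2798 (3.35%) reached that length. The stretches were selected on the positions of the H3K27ac peaks of both lists, so all values of H3K27ac below are descriptions without a test. The sox10 list did not enter the rule.

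The cell line, zcrest, is 1 melanoma line grown for more than 20 passages. Its founder fish had the genotype p53/BRAF/Na with crestin:EGFP, in which a neural crest promoter drives EGFP, and with MiniCoopR alone, a vector holding a mitfa minigene. The primary melanoma was a bulk tumor, dissected and dissociated from 1 p53/BRAF/Na fish that had received MiniCoopR with the control plasmid mitf:EGFP. Both sources thus share the p53/BRAF/Na background and MiniCoopR, and they come from different fish. Chromatin immunoprecipitation with sequencing was done for H3K27ac in both and for sox10 in the line, with 1 library per group and no replicates. The deposited lists hold 50338 H3K27ac peaks of the line, 59760 of the tumor and 4202 sox10 peaks, on the Zv9 assembly. The read depth behind them is unknown, and a bulk tumor also holds cells other than melanoma cells.

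H3K27ac is laid down by the acetyltransferases p300 and CBP at active promoters and enhancers, so a region without it is generally one with little promoter or enhancer activity in the cells studied. Such regions include gene deserts and heterochromatin, the compacted and mostly silent part of the genome. Sox10 is a transcription factor of the SOX family that is needed for neural crest and melanocyte development, and it binds many of the enhancers of that lineage.

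The stretches made up a large part of the genome. Together they covered 519 Mb, or 38.3% of the 1356 Mb between the first and the last H3K27ac peak of each chromosome. The median gap of all lengths was 2.46 kb, whereas the median stretch was 150.1 kb, with quartiles at 121 and 213 kb and a ninth decile at 308 kb. Long members carried much of the length. The longest 874 stretches, of 192 kb or more, held 50% of it. In the class of 100 to 125 kb there were 839 stretches, and in the class of 300 to 500 kb there were 246. Only 55 were 500 kb or longer.

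**Figure D1:**
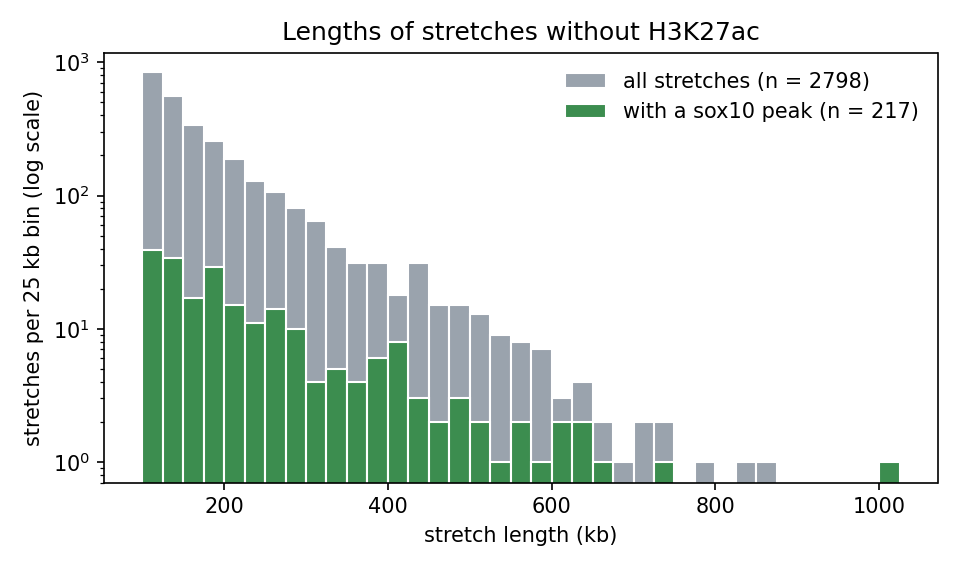
Histogram of stretch lengths in bins of 25 kb (x axis, kb; y axis, number of stretches on a log scale). Grey bars are all 2798 stretches and green bars the 217 that contain a sox10 peak; numbers fall steeply with length, and the single longest stretch, of 1001 kb, is among those with sox10 peaks.

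The longest stretch lay on chromosome 22 from 28430028 to 29431181 and measured 1001 kb. The borders were nearly the same in both sources: the gap was 1001 kb in the line alone and 1002 kb in the tumor alone. It was followed by a stretch of 863 kb on chromosome 4 from 47166666 to 48029381, one of 826 kb between 48703310 and 49529315 of chromosome 5, and one of 786 kb between 2745860 and 3531498 of chromosome 7. The next 6 were on chromosome 12 from 46667887 to 47399839 (732 kb) and from 33880230 to 34605735 (726 kb), chromosome 18 from 31403620 to 32126618 (723 kb), chromosome 6 from 16699869 to 17407028 (707 kb), chromosome 22 from 27753210 to 28428821 (676 kb) and chromosome 17 from 13654801 to 14326183 (671 kb). Of these 10, the chromosome 22 stretch of 1001 kb held 48 sox10 peaks, the chromosome 12 stretch of 726 kb held 1, and the other 8 held 0.

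At the threshold, the shortest stretch measured 100002 bases, on chromosome 16 from 44156730 to 44256731. The next shortest began at 14655604 on chromosome 12 (100006 bases), 54237127 on chromosome 16 (100008), 36062071 on chromosome 13 (100011) and 14190079 on chromosome 21 (100012). The longest gaps left out measured 99987 bases (chromosome 6 from 33629549), 99977 (chromosome 16 from 18811060), 99974 (chromosome 20 from 6398534), 99959 (chromosome 7 from 11786873) and 99939 (chromosome 19 from 3109495). None of these 10 contained a sox10 peak.

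All 25 chromosomes had stretches, from 73 on chromosome 22 to 161 on chromosome 7. Chromosome 4 stood at the top, with 155 stretches that covered 34.3 Mb and 55.3% of its own span. It contributed 6.61% of the stretch length and 4.58% of the span. Chromosome 1 followed with 47.1% of its span and chromosome 12 with 46.1%. The lowest shares were on chromosome 23 (27.8%), chromosome 19 (29.5%) and chromosome 20 (30.6%), and the median chromosome had 37.4%. Chromosomes 19 and 23 also had the most H3K27ac peaks per Mb in the line (54.1 and 48.4) and in the tumor (54.1 and 60.1). Such an order follows from the rule, since peaks break gaps.

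The excess on chromosome 4 came from beyond its first 25 Mb. From 25 Mb onward, 119 stretches covered 77.3% of 37.1 Mb, with a median length of 191 kb. Before 25 Mb, 36 stretches covered 22.6%, with a median of 135 kb. H3K27ac was sparse beyond 25 Mb in both sources, at 8.96 peaks per Mb in the line and 7.10 in the tumor, against 41.6 and 89.5 before it. The long arm of this chromosome is known to be heterochromatic, late replicating and rich in repeats.

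Along chromosomes the stretches were slightly rarer at both the tips and the centres. When each chromosome was divided into 5 zones of equal size by distance from its nearer end, stretches covered 35.4% of the outermost zone, 40.2%, 41.8% and 40.6% of the following zones and 33.6% of the innermost. Single chromosomes varied more than this. In the innermost zone the share ran from 14.7% to 77.8% over the 25 chromosomes.

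**Figure D2:**
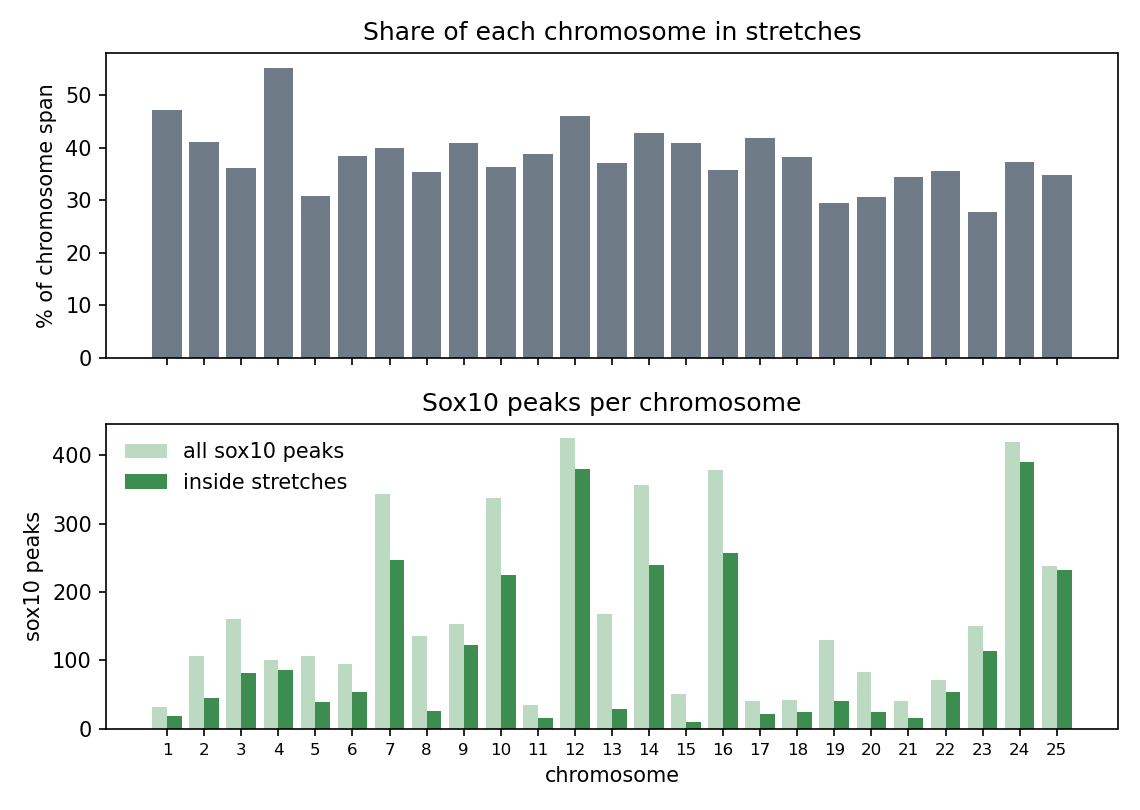
Upper panel, percent of each chromosome's span that lies in stretches; chromosome 4 is highest at 55.3% and chromosome 23 lowest at 27.8%. Lower panel, number of sox10 peaks on each chromosome (light green) and of those inside stretches (dark green); chromosomes 24 and 12 have the highest numbers inside, with 390 and 380 of the 2790.

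Stretches often followed each other with a short acetylated island between them. Where islands of up to 10 kb were bridged, 984 stretches (35.2%) fell into 416 chains, of which 305 joined 2 stretches and 111 joined 3 or more. The 568 islands had a median size of 333 bases. They held peaks of the line alone in 189 cases, of the tumor alone in 218 and of both in 161. Most islands were thus seen in only 1 source, as were most merged peaks anywhere. Of all 83443 merged peaks, 31.4% came from the line alone, 43.1% from the tumor alone and 25.5% from both. Only 378 of the 568 islands were a single merged peak, so shares of islands and of merged peaks are not like for like. In all, 16 bridged regions were longer than 1 Mb.

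The longest bridged region lay on chromosome 4 from 46738684 to 48752988. It joined 4 stretches over 2014 kb, interrupted by 1.62 kb of islands with 3 line and 3 tumor peaks. The second lay on chromosome 22 from 27753210 to 29621382 and joined 3 stretches over 1868 kb, among them the longest stretch, with 1.36 kb of islands. The third, on chromosome 17 from 46593820 to 47834090, spanned 1240.3 kb, and its islands held 3 line peaks and 0 tumor peaks. A run of 6 stretches on chromosome 4 from 25196112 to 26394542 was the longest by number and held 67 sox10 peaks.

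Either source alone left more of the genome empty than both together, which follows from pooling, since added peaks break or shorten gaps. The line list by itself had 3632 gaps of 100 kb or more over 769.7 Mb, and the tumor list had 3034 over 636 Mb. Long gaps of both lists covered 544 Mb in common, which was 70.6% of the line's and 85.5% of the tumor's. Of the line's long gaps, 872 (24.0%) held no tumor peak, with a median of 2 tumor peaks per gap. Of the tumor's long gaps, 1131 (37.3%) held no line peak, with a median of 1. The lists differ in length and in unknown depth, so these counts do not rank the sources by acetylation.

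Some regions were empty in 1 source and densely acetylated in the other, and these are not stretches by the rule or are stretches only in part. A tumor gap of 430.3 kb on chromosome 14 from 17884776 to 18315094 held 41 line peaks, which left 1 stretch of 219 kb inside it. A line gap of 268 kb on chromosome 23 from 25642499 to 25910077 held 36 tumor peaks and no stretch. Other long gaps were broken by few peaks. The longest gap of the tumor list, 1892 kb on chromosome 4 from 32490097 to 34382479, held 10 line peaks and 6 stretches of 1712 kb in all. The longest of the line list, 1677 kb on chromosome 12 from 41331842 to 43009040, held 11 tumor peaks and 6 stretches of 1591 kb.

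Borders coincided in both sources for some stretches and differed for others. Both borders of the enclosing gaps lay within 5 kb of each other in the 2 lists for 396 stretches (14.2%), 1 border did for 1263 (45.1%), and neither did for 1138 (40.7%). For 1 stretch an enclosing gap could not be had, since a list had no peak beyond it. The enclosing gap had a median of 212 kb in the line and 188 kb in the tumor. It was at least 1.5 times as long as the stretch for 861 stretches in the line (30.8%) and for 597 in the tumor (21.3%).

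**Figure D3:**
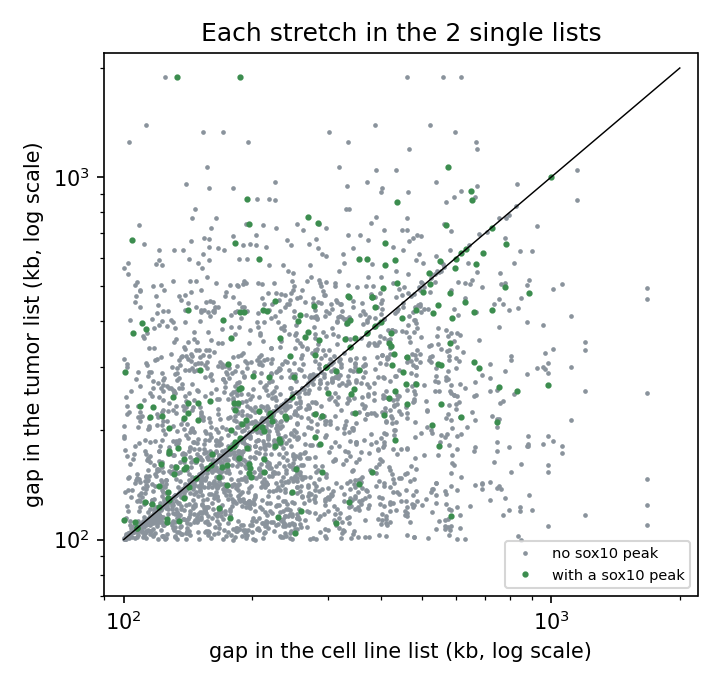
Each point is 1 stretch, placed by the length of the gap that encloses it in the cell line list (x axis, kb, log scale) and in the tumor list (y axis, kb, log scale), with the line of equal lengths; green points contain a sox10 peak. Points near the line have gaps of like length in both lists, though their borders may still differ. Many points lie far from it on either side, with medians of 212 kb (line) and 188 kb (tumor).

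The peaks at the borders were slightly less often shared than other peaks. Of the 5218 different merged peaks that border a stretch, 33.8% came from the line alone, 43.2% from the tumor alone and 23.0% from both. Among merged peaks at no border these shares were 31.3%, 43.1% and 25.7%. The 378 merged peaks that stand alone between 2 stretches were found in both sources in 49 cases. Their fold enrichments, the authors' values for each peak over the caller's background, had medians of 4.87 in the line and 4.82 in the tumor. Peaks away from the borders had medians of 5.32 and 5.58. Lone peaks thus had slightly lower values within each list.

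Beyond the border peak, H3K27ac peaks were less dense than the mean outside stretches in both sources. In the 50 kb outward of 5596 borders, with the border peak left out, the line had 39.5 peaks per Mb and the tumor 39.0. The mean outside stretches, border peaks included, was 60.2 and 71.5 per Mb. The mean over the whole span, stretches included, was 37.1 and 44.1, so the line's value lay above it and the tumor's below. Windows that reach into another stretch were counted too, and without them the values were 48.4 and 48.9. Both sides were alike, with 39.1 and 39.9 per Mb at left and right borders in the line and 38.8 and 39.3 in the tumor. The median border had 1 further peak of each source, and 1472 borders (26.3%) had none of either.

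The density of further peaks was highest within 10 kb of the border peak. In that distance there were 64.6 line and 52.4 tumor peaks per Mb, and from 10 to 25 kb there were 32.8 and 35.2. From 50 to 100 kb the values were 33.6 and 37.4. Line peaks outnumbered tumor peaks by 1.23 to 1 within 10 kb, although the lists as a whole stand at 0.84 to 1. The border peaks left out of the windows comprised 3087 line and 3550 tumor peaks, so with them the ratio near borders would be lower. From 50 to 100 kb the ratio was 0.90. Gaps of 50 to 100 kb showed the same course at a higher level, with 46.6 line and 51.1 tumor peaks per Mb in the first 50 kb, and gaps of 10 to 25 kb had 66.3 and 80.3.

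**Figure D4:**
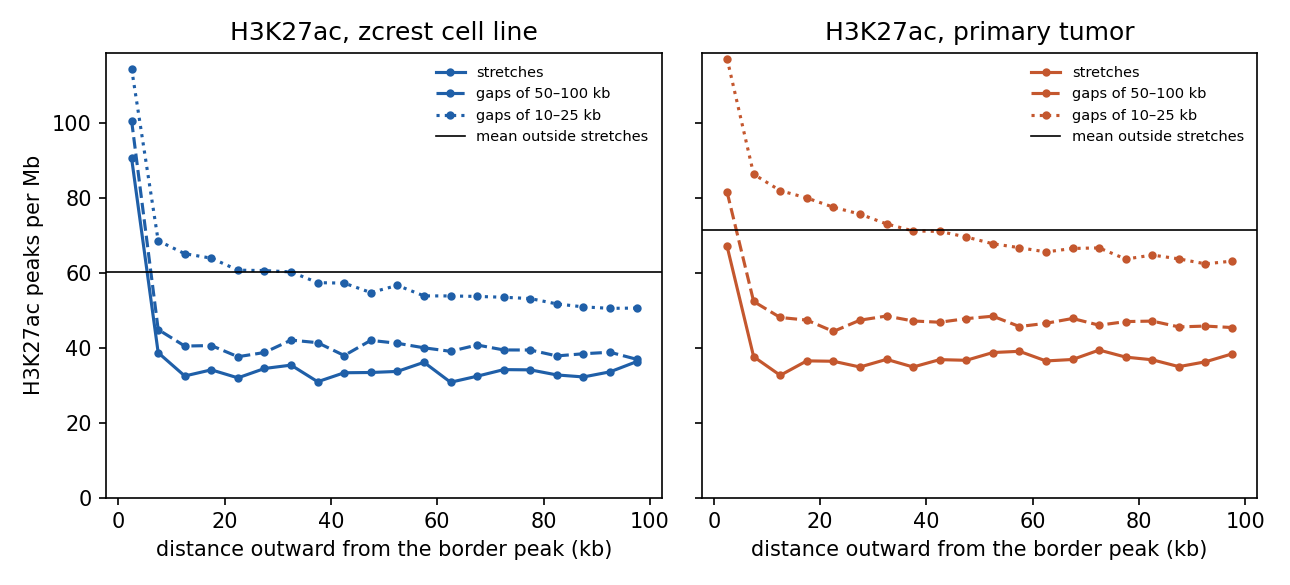
H3K27ac peaks per Mb (y axis) against distance outward from the border peak (x axis, kb, in steps of 5 kb) in the cell line (left) and the tumor (right), for stretches (solid), gaps of 50 to 100 kb (dashed) and gaps of 10 to 25 kb (dotted). The horizontal line is the mean outside stretches, 60.2 and 71.5 per Mb; beyond the first 5 kb the solid curve stays below both other curves and below that mean.

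Another stretch lay within 50 kb of 1660 borders (29.7%), where the densities were 18.5 line and 15.7 tumor peaks per Mb. These windows are low by definition, since they include bases of the other stretch, which hold no peak by the rule. The other 3936 borders had the 48.4 and 48.9 per Mb given above. Over all borders, longer stretches had sparser ones. The line went from 42.0 per Mb for stretches of 100 to 150 kb to 34.0 for those of 300 kb or more, and the tumor from 42.5 to 31.0. These values include the windows that reach into another stretch, and values by length without those windows are not given.

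The line and the tumor tended to be dense at the same borders, whereas the left and right borders of a stretch were nearly unrelated. Across the 5596 borders the peak numbers of both sources had a Spearman rho of 0.61, and across the 2798 stretches the left and right numbers had a rho of 0.09. Windows of neighbouring stretches can overlap, and both sources share mappable sequence. At 1660 of the borders the window reaches into another stretch, where the rule empties both sources at once. Part of the rho of 0.61 can therefore follow from the rule, and no rho without these borders is given. Still, 46 borders had 5 or more tumor peaks and no line peak, and 45 had the converse. In 133 stretches one side had 10 or more further peaks and the other had 0. In 45 both sides had 10 or more.

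The densest borders belonged to a stretch of 166 kb on chromosome 7 from 28210512 to 28376097. Its left side had 12 line and 4 tumor peaks and its right side 16 and 34. On chromosome 14 a stretch of 143 kb from 28801001 to 28944244 had 9 and 5 on the left and 20 and 24 on the right. Both were free of sox10 peaks and lay between well-acetylated neighbours.

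The most unequal borders belonged to a stretch of 124 kb on chromosome 3 from 54366554 to 54490422. Its left side had 29 line and 24 tumor peaks, and its right side 0 and 1. Another on chromosome 3, from 2344624 to 2514902, had 0 and 0 on the left and 30 and 19 on the right. A stretch between 35526473 and 35717302 of chromosome 21 had 28 and 18 on the left and 1 and 1 on the right. One between 33084371 and 33213406 of chromosome 20 had 0 and 0 on the left and 31 and 13 on the right. On chromosome 19 from 22832947 to 22932979 the right side had 36 line and 12 tumor peaks, and the left 2 and 2. In all 5, the side that was dense in the line was also the denser side in the tumor. These 5 were chosen by the difference between sides of line and tumor peaks summed, so such agreement largely follows from the choice.

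Most sox10 peaks of the line lay inside stretches, although most sox10 sites did not. Of 4196 sox10 peaks on chromosomes, 2790 (66.5%) lay wholly inside, a density of 5.37 per Mb against 1.68 per Mb in the rest of the span. Sox10 peaks came in clusters, however, and peaks of a cluster are not independent. With peaks less than 5 kb apart joined, the list held 685 sites, of which 273 (39.9%; exact Clopper-Pearson 95% interval 36.2% to 43.6%) lay wholly inside 1 stretch and 18 partly. That share, of single peaks and clusters together, is near the 38.3% of the span that stretches cover, which lies inside the interval. Of clusters of 2 or more peaks alone, 109 of 230 (47.4%; interval 40.8% to 54.1%) lay wholly inside. The 38.3% lies below that interval. Both intervals cover counting error only, and the difference was not tested.

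Large clusters held most of the sox10 peaks inside stretches. Single sox10 peaks lay inside in 164 of 455 cases (36.0%; interval 31.6% to 40.6%). The share was 48 of 108 (44.4%; 34.9% to 54.3%) for clusters of 2 to 4 peaks, 33 of 79 (41.8%; 30.8% to 53.4%) for 5 to 19 and 16 of 27 (59.3%; 38.8% to 77.6%) for 20 to 49. Of the 16 clusters of 50 or more peaks, 12 lay wholly inside (interval 47.6% to 92.7%) and the other 4 partly, each with at least 3 peaks inside. These 16 contributed 1719 of the 2790 peaks. The shares are of all clusters in a class, and a cluster that an H3K27ac peak interrupts does not count as wholly inside. Large clusters span up to 80.3 kb, so this condition is harder for them to meet. The rise with size was not tested.

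Sox10 density grew with stretch length, and that of single peaks did not. Stretches of 100 to 150 kb held 1.41 sox10 peaks per Mb, those of 150 to 200 kb 3.81, those of 200 to 300 kb 7.24 and those of 300 kb or more 10.3. Single peaks ran at 0.35, 0.36, 0.27 and 0.28 per Mb in the same classes. Sites of any size wholly inside ran at 0.47, 0.55, 0.55 and 0.56 per Mb. Clusters of 50 or more peaks wholly inside numbered 0, 1, 4 and 7 in these classes, so few clusters weigh heavily on the density of all peaks. Gaps of 50 to 100 kb had 1.84 sox10 peaks, 0.31 single peaks and 0.40 sites per Mb.

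**Figure D5:**
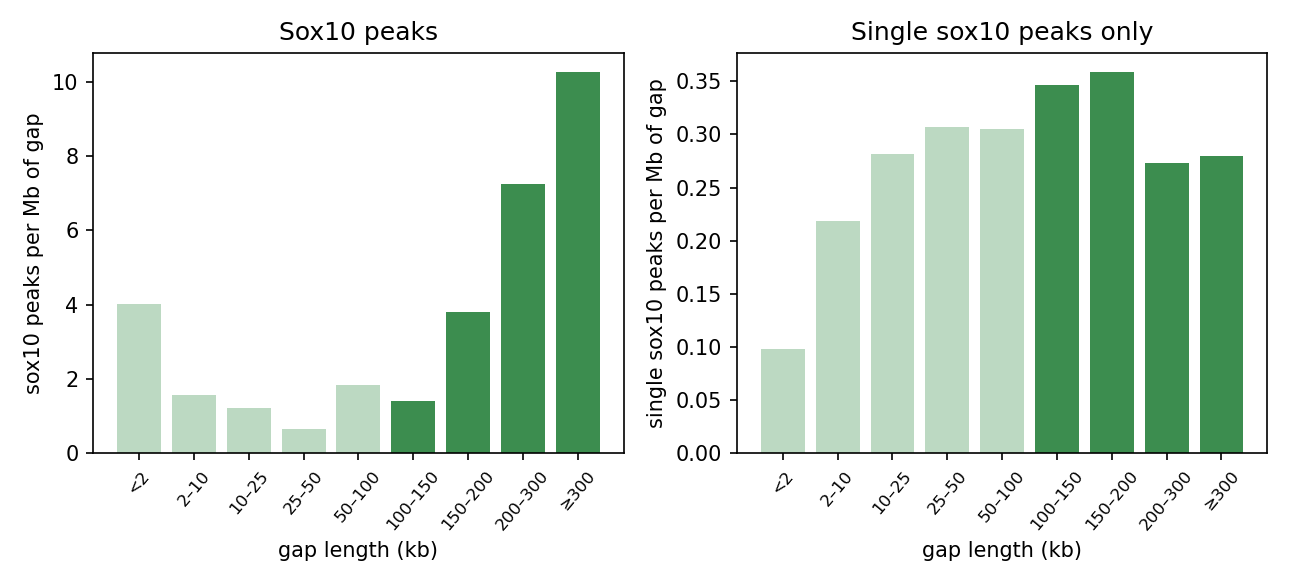
Sox10 peaks (left) and single sox10 peaks (right) per Mb of gap (y axes) in 9 classes of gap length (x axis, kb); dark bars are stretches and light bars shorter gaps. All peaks stand at 4.01 per Mb in gaps under 2 kb, at 0.66 in gaps of 25 to 50 kb and at 10.3 in stretches of 300 kb or more. Single peaks in those longest stretches stand at 0.28 per Mb, close to the 0.31 of gaps of 50 to 100 kb.

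Few stretches held most of these sox10 peaks. A sox10 peak was present in 217 of the 2798 stretches (7.76%), and 119 of these had exactly 1. The share with a sox10 peak rose with length. It is a share of regions and not per Mb, and longer regions hold more bases, so such a rise can follow from length alone. The share was 2.98% for gaps of 50 to 100 kb, 5.22% for stretches of 100 to 150 kb and 15.9% for those of 300 kb or more. There were 49 stretches with 5 or more sox10 peaks and 13 with 50 or more. The 10 fullest held 1862 peaks, 66.7% of those inside. Without these 10, 928 peaks remained inside. The 10 were chosen for their sox10 number and no full places were removed elsewhere, so this number is not set against the density elsewhere.

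The fullest stretch lay on chromosome 24 from 11972836 to 12588299 (615 kb) and held 321 sox10 peaks in 5 clusters. The largest of these spanned 75.4 kb from 12371357 to 12446730 with 218 peaks, and the nearest H3K27ac peak lay 142 kb away. The next, on chromosome 7 from 66032075 to 66330118 (298 kb), held 235 peaks in 6 clusters, spread from 6.96 kb inside the left border to 14.4 kb from the right. On chromosome 14 from 47116496 to 47487952 (371 kb), 231 peaks formed 2 clusters and 1 single site, and the cluster of 219 peaks began 3.42 kb from the left border. Large clusters thus lay both deep inside stretches and close to an acetylated border.

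A single cluster of 210 peaks made up the sox10 content of the stretch on chromosome 12 from 15321018 to 15540506. The stretch on chromosome 16 from 19918522 to 20493185 held 203 peaks in 2 clusters, and neither border had any further H3K27ac peak within 50 kb. On chromosome 25, the stretch from 27003653 to 27338372 held 185 peaks in 3 clusters, which lay between 27101487 and 27194850. On chromosome 10 from 12846604 to 13062777 a cluster of 157 peaks had a median fold enrichment of 2.68, and its 2 borders also had no further H3K27ac peak within 50 kb. The 10 were completed by 136 peaks between 16607689 and 16910446 of chromosome 12, 105 between 12651835 and 12813280 of chromosome 23 and 79 between 9223434 and 9404230 of chromosome 9. Most of the 136 belong to a cluster of 181 peaks from 16867128 to 16929155. That cluster crosses the right border of the stretch and lies only partly in stretches. The chromosome 23 stretch, too, had no further H3K27ac peak within 50 kb of either border.

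The chromosome 9 stretch had the densest neighbour of these 10. Its left side held 17 line and 24 tumor peaks in 50 kb, and its right side 2 and 4. Its 3 sox10 clusters, of 35, 21 and 23 peaks, lay 104, 132 and 159 kb from the left border. The last of them ended 2.78 kb from the right border, away from the dense side.

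Sox10 sites were spread over the whole length of stretches. Of the 273 sites, 86 lay in the left, 87 in the middle and 100 in the right of 3 equal parts. The median distance to the nearer border was 44.8 kb, with quartiles at 20.4 and 81.3 kb. At 50 kb or more from a border lay 45.1% of sites and 46.1% of stretch bases, and within 10 kb lay 8.06% of sites and 10.8% of bases.

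Sox10 peaks inside stretches had lower fold enrichments than the others. The median was 4.48 inside and 5.78 elsewhere, and 10-fold or more was reached by 45 of the 2790 (1.61%) and by 164 of the other 1406 (11.7%). The highest value inside was 20.8, against 32.9 elsewhere. The median −log10 q over all peaks was not lower, at 9.03 inside and 7.95 elsewhere. By site size, the medians of fold enrichment were 5.30 inside and 5.13 elsewhere for single sox10 peaks. For clusters, 1 median was taken per cluster, and those wholly inside were set against all others. These medians were 5.64 and 6.03 for 2 to 4 peaks, 5.59 and 7.29 for 5 to 19 and 4.48 and 6.05 for 20 to 49. The others include clusters partly inside, 2, 11 and 1 in these classes. Taken the same way, the medians of −log10 q were 6.48 and 6.86, 9.34 and 10.98, and 8.74 and 9.54 in these classes. For single peaks they were 4.02 and 4.02. For 50 or more peaks the medians of fold enrichment were 4.50 and 4.36 and those of −log10 q 9.25 and 7.84, but all 4 others lay partly inside, so none lay elsewhere. Lower values inside were thus found for clusters of 2 to 49 peaks. Clusters of 50 or more held 1719 of the 2790 peaks inside, so the medians over all peaks also differ in their mix of cluster sizes. No spread between replicates is available to judge these differences.

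The share of sox10 peaks inside stretches differed widely between chromosomes. It was 97.5% on chromosome 25 (232 of 238), 92.9% on chromosome 24 (390 of 420) and 89.4% on chromosome 12 (380 of 425). On chromosome 13 it was 16.7% (28 of 168), on chromosome 15 18.0% (9 of 50) and on chromosome 8 19.3% (26 of 135). These shares count clustered peaks, and few clusters weigh heavily. On chromosome 13, 1 cluster held 117 of the 168 peaks, with 6 inside. On chromosomes 24 and 25, 1 stretch each held 321 of the 390 and 185 of the 232 inside. Sites wholly inside were 8 of 13, 15 of 27 and 14 of 22 on chromosomes 25, 24 and 12. They were 9 of 19, 4 of 23 and 6 of 22 on chromosomes 13, 15 and 8. The share of peaks exceeded the chromosome's share of span in stretches on 21 of 25 chromosomes, and the share of sites did so on 17. Beyond 25 Mb of chromosome 4, 86 of 98 sox10 peaks lay inside, in 16 stretches, and before 25 Mb 0 of 2 did.

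Few of the H3K27ac peaks at borders carried a sox10 peak, although their share was above that of all merged peaks. Of the 5218 merged H3K27ac peaks at a border, 35 (0.67%; interval 0.47% to 0.93%) overlapped a sox10 peak by at least 1 base, against 238 of all 83443 merged peaks (0.29%; 0.25% to 0.32%). Among the 378 that stand alone between 2 stretches there were 5 (1.32%; 0.43% to 3.06%). One sox10 cluster can overlap several H3K27ac peaks, and 18 sox10 sites lay partly inside a stretch. The overlapping peaks are therefore not independent, and the intervals cover counting error only. The set of all merged peaks includes those at borders. When the 231 line H3K27ac peaks that overlap sox10 were left out before gaps were taken, 2925 sox10 peaks (69.7%) lay inside 2799 stretches. Stretches with sox10 peaks had 39.6 line and 35.4 tumor peaks per Mb at their borders, and stretches without had 39.5 and 39.3. Those with 5 or more sox10 peaks had 48.8 and 43.1 per Mb, over only 98 borders. These differences were not tested.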

How the data were processed

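Reads were aligned with Bowtie to Zv9 and peaks called with MACS2 version 2.0, per the submitters' processing notes. Which control and thresholds served for calling is not given in the sources used here. For every peak the deposited lists hold the fold over the caller's background, which is a ratio, the −log10 of p and of q, and a score, which equals the deposited −log10 q times 10, truncated, in all 3 lists. Input libraries were not analysed here. No genome or annotation of Zv9 was used, so genes and sequences are not given, and bases to which reads cannot be assigned were not subtracted. Peaks that share a base or touch were merged. Border windows of 50 kb began at the outer edge of the border peak, and peaks were counted by their midpoints. A sox10 site is a peak or a group of peaks less than 5 kb apart. Coordinates are 1-based. The gap and cluster steps were tested on simulated data. With 1 library per group no test between groups was made. Stretches were named by a rule on length, sox10 number and border density. The rule for stretches, the clusters and the lists were chosen with earlier results of these data known. Python 3.11.15, numpy 2.4.6, pandas 2.3.3, scipy 1.17.1 and matplotlib 3.10.9 were used.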

Additional observations from a re-analysis of the deposited data

Results flagged for a closer look

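Outside the chromosomal gaps the sox10 list held 6 mitochondrial peaks (1.81-fold to 2.47-fold enriched), where the H3K27ac lists held 0. A further 4 sox10 peaks lay before the first or after the last H3K27ac peak of a chromosome and so in no gap. The mitochondrial peaks lie outside the comparisons above. The 4 others are counted among the 4196 sox10 peaks on chromosomes and the 1406 elsewhere. They thus enter the 1.68 per Mb of the rest of the span, although they lie beyond it. No control list was used to judge either set.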

How the results depend on the processing

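Of 83 alternatives to 7 values, 79 stayed within 1.5 times the reported value. A minimum length of 150 kb left 1400 stretches. Sox10 clusters of 2 or more peaks wholly inside a stretch numbered 109, and 172 when peaks were joined at less than 1 kb. Clusters of 5 or more numbered 61. Without the 10 fullest stretches 928 sox10 peaks lay inside. The settings without these 10, without chromosome 4 and without line H3K27ac peaks under sox10 (15 of the 83) were chosen after seeing the data. No paired analysis was possible because each group has 1 library and no result comes from a test between groups. Depth is unknown, and a deeper library could yield peaks inside stretches.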
